A study of Mus musculus with 28 samples.

Results

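The oligoadenylate synthetase (OAS) family was followed across dendritic cells (DCs) sorted from mouse spleen. The genes described are Oas1a, Oas1b, Oas1c, Oas1g, Oas2, Oas3, Oasl1 and Oasl2, taken by symbol, which are 8 of the 24421 genes counted. The remaining Oas1 paralogs, Oas1d, Oas1e, Oas1f and Oas1h, are listed only for their counts.

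The study profiled bulk RNA of sorted splenic DCs of untreated C57Bl/6 mice between 6 and 12 weeks old, in 28 libraries of 4 groups. Conventional type 1 DCs (cDC1_WT, 8 libraries, CD24+), conventional type 2 DCs (cDC2_WT, 8 libraries, CD172a+) and plasmacytoid DCs (pDC_WT, 8 libraries) came from Irf8fl/fl mice. These carry loxP-flanked alleles of Irf8, a transcription factor gene of DC development, without a Cre, and the labels call them WT. The fourth group, pDC_TG (4 libraries), held plasmacytoid DCs of Irf8fl/fl Itgax-cre mice, in which sequence of Itgax, the gene of the integrin CD11c, drives the Cre recombinase. All 4 groups therefore share the floxed Irf8 background. Itgax is also active in conventional DCs, so the Cre is not limited to pDC, and the labels give no marker for the pDC gate. The design text gives 4 replicates for each sample, whereas each WT group held 8 libraries. The labels number the replicates without saying whether each came from 1 mouse or from a pool, so the p-values measure the spread between these libraries.

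OAS proteins are sensors of double-stranded RNA in the cytosol. Once bound to it, the catalytically active ones join ATP into 2-5A, short oligoadenylates with 2′-5′ links that act as a second messenger of the antiviral response. Mouse Oas1a and Oas1g encode active small synthetases, and Oas2 and Oas3 encode larger proteins with several synthetase units. The OAS-like genes Oasl1 and Oasl2 encode proteins with ubiquitin-like domains at their C-terminal end, and the mouse OASL1 protein lacks synthetase activity and is known for restraining translation of Irf7 RNA. The genes are textbook targets of type I interferon through the transcription factor complex ISGF3, which binds the interferon-stimulated response element (ISRE). Plasmacytoid DCs are known as strong producers of type I interferon.

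Library depth lay between 17299285 and 30787679 counts on genes, and levels are given as CPM, the reads of a gene relative to all gene reads of its library after TMM scaling. Irf8 itself, the floxed gene, was at 1461 ± 257 CPM (SD, n = 4) in pDC_TG and at 6145 ± 459 CPM (SD, n = 8) in pDC_WT (log2 fold change, log2FC, -2.07, SE 0.13, adjusted p = 4.43e-13). A floxed allele can still give counts from parts that stay in place, and which exons the counts came from was not analysed here. The summed level of 9 pDC markers was 8527 to 11690 CPM in pDC_TG and 10090 to 12910 CPM in pDC_WT, against 92.3 to 120.7 CPM in cDC1_WT and 282 to 314 CPM in cDC2_WT. Of these 9 markers, 1 was higher and 4 were lower in pDC_TG. One pDC_TG library stood apart. Its replicate 4 held 198 CPM of summed neutrophil markers, whereas the whole of pDC_WT stayed between 0.196 and 2.62 CPM. Replicates 1 to 3 of pDC_TG held 0.23, 0.34 and 4.59 CPM. With replicate 4 in the group, 5 of 6 tested neutrophil markers were called higher in pDC_TG. Summed markers of other cells also differed between the groups without overlap. They were higher in pDC_TG for plasma cells (1615 to 1775 against 953 to 1452 CPM), T cells (20.8 to 27.9 against 4.24 to 13.5 CPM) and NK cells (1.73 to 2.14 against 0 to 1.13 CPM), and lower for cDC1 (81.6 to 93.7 against 151 to 238 CPM). Of the tested markers, 2 of 5 of plasma cells were higher and 2 lower, 1 of 5 of T cells was higher, 0 of 4 of NK cells passed, and 2 of 8 of cDC1 were higher and 4 lower. Batf3 (cDC1) was at 0 in all of pDC_TG. Of the NK cell markers, Klra8 was at 0 in all 4 groups, and Ncr1 and Klrb1c were at 0 in pDC_WT. The part of such other cells in the OAS values below was not tested. In bulk samples fewer cells with a transcript and less of it per cell cannot be told apart.

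The 8 genes lie in 2 places on chromosome 5 of build GRCm38 (mm10). The OAS cluster from Oas2 to Oas1d spans 191 kb. It holds Oas2 (chr5:120730333-120749853), Oas3 (chr5:120753098-120777661), Oas1c (chr5:120800194-120812514), Oas1b (chr5:120812635-120824163), Oas1g (chr5:120876142-120887613) and Oas1a (chr5:120896256-120907521). Oasl2 (chr5:114896936-114912234) and Oasl1 (chr5:114923240-114937915) form a separate pair that spans 41.0 kb, 5.79 megabases away from Oas2. Oas1c and Oas1b run in opposite directions with their 5′ ends 121 bases apart. Oas1b is annotated as a polymorphic pseudogene, and C57Bl/6 mice are known to carry a premature stop codon in it.

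Promoter sequence was available from RefSeq (GRCm38.p6) for 6 of the 8 genes, all but Oas2 and Oas1b, as 250 bases before and 50 after the annotated start. The core of the ISRE was searched on both strands as GAAANNGAAA. It was present in 4 of the 6 promoters, those of Oas1a, Oas1g, Oas1c and Oas3, and in 3.44% of the 32851 promoters in the table. The 150 bases before the start of these 4 are printed because the shared element sits in them. Each reads 5′ to 3′ on the strand of its gene, with the bases of core matches in capitals.
Oas1a, chr5:120907526-120907675, minus strand: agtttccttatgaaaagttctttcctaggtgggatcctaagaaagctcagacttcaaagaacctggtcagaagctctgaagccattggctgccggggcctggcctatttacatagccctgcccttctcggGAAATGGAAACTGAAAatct
Oas1g, chr5:120887614-120887763, minus strand: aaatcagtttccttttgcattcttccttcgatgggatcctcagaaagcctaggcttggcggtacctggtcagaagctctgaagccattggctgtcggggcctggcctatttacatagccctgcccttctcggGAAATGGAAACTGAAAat
Oas1c, chr5:120812515-120812664, minus strand: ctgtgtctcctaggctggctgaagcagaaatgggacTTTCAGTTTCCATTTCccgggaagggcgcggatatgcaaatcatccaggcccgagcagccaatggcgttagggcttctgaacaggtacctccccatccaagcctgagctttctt
Oas3, chr5:120777660-120777809, minus strand: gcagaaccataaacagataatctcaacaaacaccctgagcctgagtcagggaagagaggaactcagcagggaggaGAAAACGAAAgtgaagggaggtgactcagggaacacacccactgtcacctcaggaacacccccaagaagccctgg

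Oas1a and Oas1g carried the same 16-base run, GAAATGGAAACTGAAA, made of 2 core matches that overlap and so are not separate elements. Oas1c held that run on the opposite strand (TTTCAGTTTCCATTTC on its own strand). This copy, at chr5:120812613-120812628, points towards Oas1b and ends 7 bases before the annotated start of Oas1b. The run was found in 7 of 32851 promoters, which belong to Oas1a, Oas1c, Oas1g, Apol9a and Apol9b. The core of the Oas3 promoter was a single match, GAAAACGAAA. Oasl1 and Oasl2 had no core match in the window, which says only that these letters are absent there. The composite element of ETS and IRF factors, searched as GGAANNGAAA on both strands, was in none of the 6 promoters and in 2.72% of all. The STAT site searched as TTCNNNGAA was in the Oas1a promoter alone among the 6 and in 8.30% of all.

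**Figure D1:**
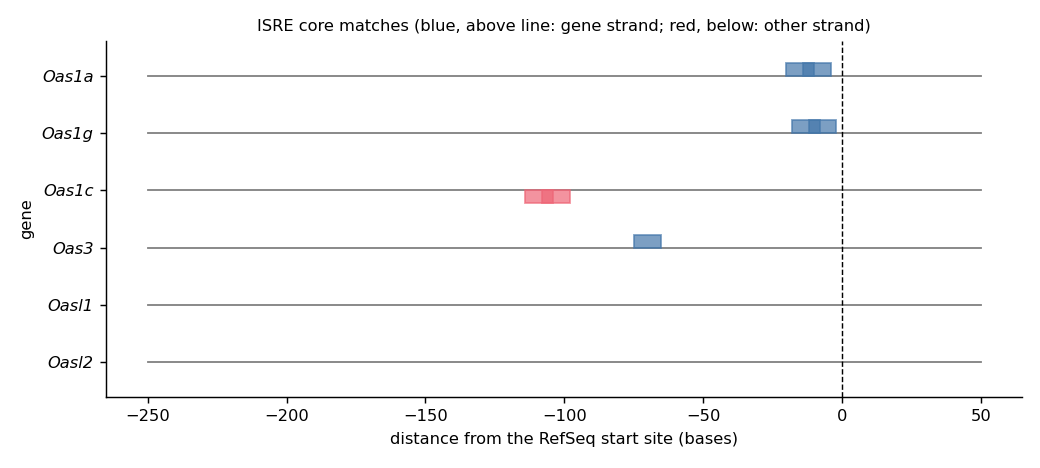
Position of ISRE core matches in the promoters of 6 OAS genes, in bases from the RefSeq start (x axis), with each gene on a row (y axis) and each box the length of the searched core. Matches of Oas1a start at -20 and -14, those of Oas1g at -18 and -12, those of Oas1c at -114 and -108 on the other strand, that of Oas3 at -75, and Oasl1 and Oasl2 have none.

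The comparison of pDC_TG with pDC_WT asks how pDC of mice with the Itgax-driven Cre differ from pDC of mice without it. Of the 8 OAS genes, 7 were higher in pDC_TG and none was lower, and the exception, Oasl1, did not pass the test. Over all 13159 genes tested, 7.72% were called higher and 7.04% lower. The median log2FC was 2.63 over the 8 genes and 0.00 over all genes. For 6 of the 8 genes every pDC_TG library lay above every pDC_WT library, which was so for 4.9% of all genes. All 8 passed the filter on low counts, which keeps genes that are high in a single group, so these shares are descriptions of the genes and no separate evidence.

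Among the small synthetases, Oas1a, an active enzyme, was the most abundant by counts. Its level in pDC_TG replicates 1 to 4 was 72.3, 66.4, 93.3 and 67.6 CPM. In pDC_WT it ranged from 5.79 CPM over a median of 12.2 to 20.5 CPM. Each pDC_TG library was thus above the highest pDC_WT library, and the rise was 5.80-fold (log2FC 2.54, SE 0.30, adjusted p = 3.94e-07).

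Oas1g, a neighbour and close copy of Oas1a, was at 2.72, 1.32, 3.49 and 4.24 CPM in pDC_TG. In pDC_WT 4 of 8 libraries held no count, the median was 0.0938 CPM and the highest was 0.954 CPM. The groups did not overlap, and Oas1g rose (log2FC 3.55, SE 0.75, adjusted p = 0.00106). Without pDC_WT replicate 4, the library with the highest level, the log2FC was 4.29. Reads of Oas1a and Oas1g cannot be fully separated, since 862 words of 75 bases, the read length, occur in both transcripts, 47.6% of those of Oas1a and 36.9% of those of Oas1g. With the 2 genes summed, the log2FC was 2.57 (SE 0.30, adjusted p = 2.27e-07), and Oas1g held 3.78% of the sum in pDC_TG and 1.65% in pDC_WT.

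Oas1b and Oas1c, the divergent pair, were scarce in pDC_WT. Oas1b was at 3.53, 5.03, 4.49 and 2.94 CPM in pDC_TG, and pDC_WT ranged from 0 over a median of 0.351 to 2.16 CPM. The pDC_TG libraries were all above, with a log2FC of 2.53 (SE 0.87, adjusted p = 0.0474). That call was lost without any 1 of the pDC_TG libraries (adjusted p 0.068 to 0.11), and without pDC_WT replicate 1, 3, 5, 6, 7 or 8 (0.0525 to 0.0774). Oas1c was at 2.46, 8.63, 6.29 and 5.84 CPM in pDC_TG, and pDC_WT ranged from 0 over 0.701 to 2.52 CPM. Here the lowest pDC_TG library fell below the highest pDC_WT library, replicate 1. Oas1c rose with a log2FC of 3.01 (SE 0.95, adjusted p = 0.0286), lost its call without pDC_TG replicate 2, 3 or 4 (0.0846, 0.0596 and 0.0531), and had a log2FC of 3.62 without pDC_WT replicate 1. Of the words of Oas1c, 6.75% occur in other genes, and 9.44% of its exonic bases overlap Gm43069.

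Oas2, which encodes a synthetase with 2 units, was at 7.52, 5.49, 4.29 and 12.9 CPM in pDC_TG. In pDC_WT 6 of 8 libraries held no count, and replicates 2 and 4 were at 1.43 and 0.881 CPM. The log2FC of 4.66 (SE 1.00, adjusted p = 0.00126) rests on those 2 control libraries and was 5.80 without replicate 2. Oas3, whose product favours long double-stranded RNA, was at 51.4, 52.4, 50.8 and 40.1 CPM in pDC_TG. In pDC_WT it ranged from 4.72 over 7.32 to 11.5 CPM, well apart from pDC_TG. Its rise was 6.61-fold (log2FC 2.73, SE 0.27, adjusted p = 7.36e-09).

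The OAS-like pair differed. Oasl2 was at 224, 157, 209 and 172 CPM in pDC_TG and ranged from 27.7 over 50.3 to 67.7 CPM in pDC_WT. It rose 3.83-fold (log2FC 1.94, SE 0.27, adjusted p = 5.77e-06) with no overlap. Oasl1, the repressor of Irf7 translation, was at 36.3, 24.6, 46.6 and 30.7 CPM in pDC_TG and ranged from 17.1 over 25.1 to 45.2 CPM in pDC_WT. These ranges overlapped almost wholly (log2FC 0.30, SE 0.27, adjusted p = 0.559). A test of the difference between the changes of Oasl1 and Oasl2 was not made.

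**Figure D2:**
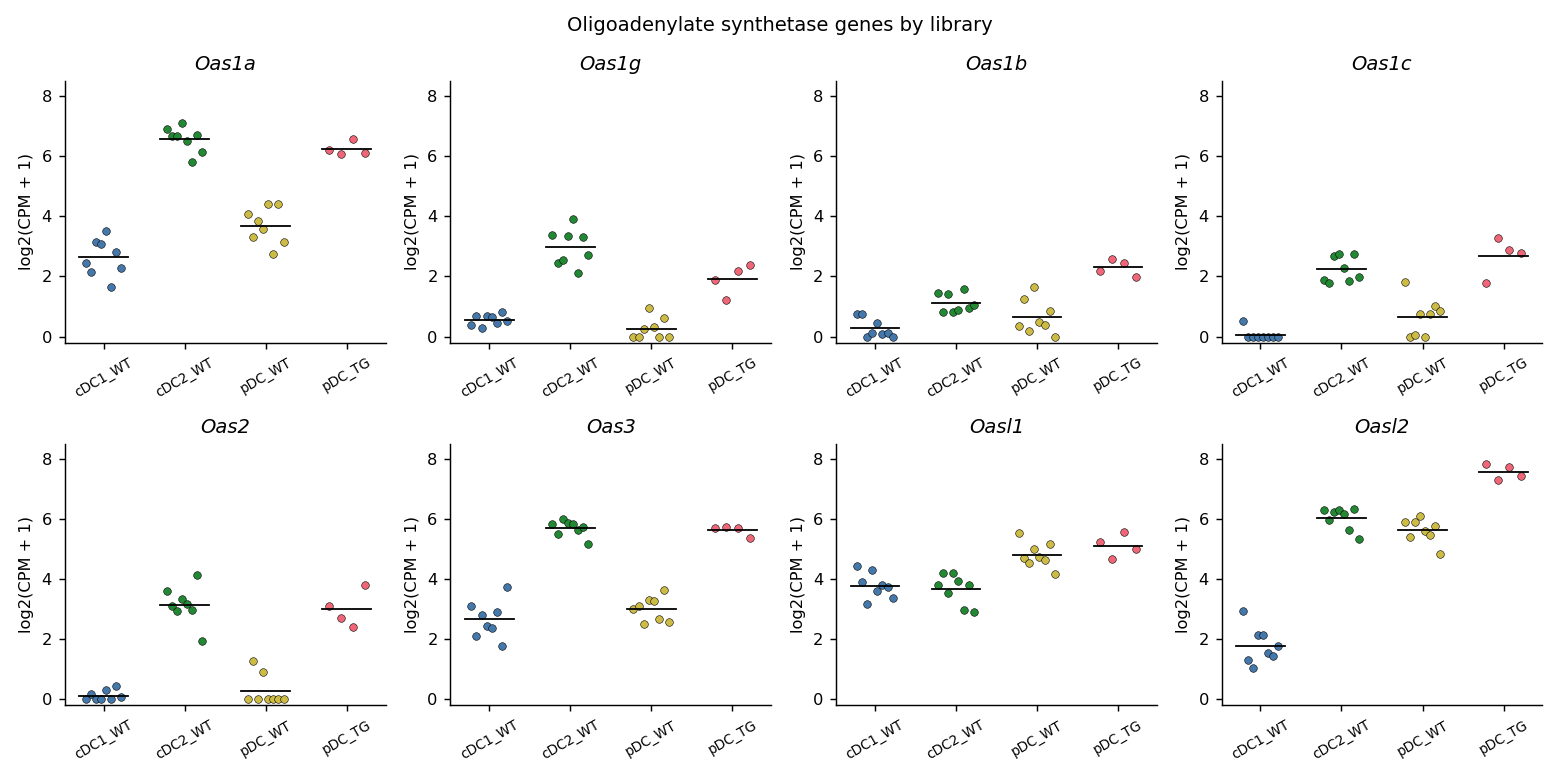
Level of the 8 OAS genes in each of 28 libraries (points), as log2(CPM + 1) on the y axis, by group on the x axis, with a line at the group mean. The 4 pDC_TG libraries of Oas3 lie between 40.1 and 52.4 CPM, above pDC_WT and beside cDC2_WT, whereas Oasl1 of pDC_TG and pDC_WT overlap.

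Oas1d, Oas1f and Oas1h had no count in any of the 28 libraries, and Oas1e was found in 1 cDC2_WT library at 0.0352 CPM, so none of these 4 paralogs was tested.

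Of 2 further genes listed with the 2-5A pathway, 0 were higher and 0 lower in pDC_TG than in pDC_WT. Abce1, which encodes an ATPase that recycles ribosomes, was at 166 ± 17.1 against 162 ± 24.6 CPM (log2FC 0.04, adjusted p = 0.913). Pde12, which encodes a phosphodiesterase that degrades 2-5A, was at 38.0 ± 4.18 against 41.8 ± 7.69 CPM (log2FC -0.14, adjusted p = 0.690).

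The WT groups show the levels of these genes without Cre. In cDC2_WT, 5 OAS genes were higher than in pDC_WT (Oas1a, Oas1c, Oas1g, Oas2 and Oas3) and 1, Oasl1, was lower, whereas 28.8% and 28.3% of all genes were called in these directions. For 4 of the 5 every cDC2_WT library was above every pDC_WT library (15.6% of all genes), the overlapping gene being Oas1c. Oas1a in cDC2_WT ranged from 54.8 over 101 to 136 CPM (log2FC against pDC_WT 2.91, SE 0.28, adjusted p = 2.48e-10). Oas3 ranged from 34.9 over 54.1 to 62.3 CPM (2.81, SE 0.24, adjusted p = 1.71e-11). Both genes thus stood near the pDC_TG libraries and clear of pDC_WT.

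Oas2 in cDC2_WT ranged from 2.86 over 7.79 to 16.6 CPM (log2FC 4.85, SE 0.94, adjusted p = 6.25e-05, and 5.99 without pDC_WT replicate 2). Oas1g ranged from 3.32 over 7.30 to 14.0 CPM (4.89, SE 0.73, adjusted p = 1.04e-06, and 5.63 without pDC_WT replicate 4). Oas1c ranged from 2.47 over 3.42 to 5.76 CPM (2.45, SE 0.84, adjusted p = 0.0141, and 3.06 without pDC_WT replicate 1), and this call was lost with WT replicates 1 to 4 alone (adjusted p = 0.134). Oasl2 ranged from 39.2 over 72.2 to 78.7 CPM, overlapped pDC_WT and did not pass the test (0.41, SE 0.23, adjusted p = 0.136), although it did in a fit of these 2 groups alone (0.0346). Oas1b was at 1.22 ± 0.491 CPM in cDC2_WT and did not pass it either (adjusted p = 0.365). Oasl1 fell to between 6.54 and 17.6 CPM around a median of 13.0 CPM, with a log2FC of -1.18 (SE 0.23, adjusted p = 4.67e-05).

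The cDC1_WT libraries had low levels of most OAS genes. Against pDC_WT, no OAS gene was higher and 4 were lower (Oas1a, Oas1c, Oasl1 and Oasl2), and 30.6% and 30.3% of all genes were called in these directions. Only Oasl2 had every cDC1_WT library below every pDC_WT library (14.3% of all genes). Oasl2 ranged from 1.04 over 2.14 to 6.73 CPM in cDC1_WT, a 17.9-fold lower level than in pDC_WT (log2FC -4.17, SE 0.28, adjusted p = 7.37e-14). Oas1a ranged from 2.17 over 5.25 to 10.4 CPM (log2FC -1.17, SE 0.27, adjusted p = 0.000435) and overlapped pDC_WT.

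Oasl1 in cDC1_WT ranged from 8.09 over 12.6 to 20.5 CPM (log2FC -1.07, SE 0.23, adjusted p = 0.000145), so that Oasl1 was the OAS gene in which both conventional populations stood below pDC. Oas1c was detected in 1 of 8 cDC1_WT libraries, replicate 1, with 11 counts. Its log2FC against pDC_WT was -3.55 (SE 0.97, adjusted p = 0.00227), -2.94 without pDC_WT replicate 1 and -2.79 with WT replicates 1 to 4 alone, where the call was lost (adjusted p = 0.0993), and without cDC1_WT replicate 1 the group has no count, so that no fitted fold can be read. Oas2, with 18 counts in all of cDC1_WT, Oas3 at 5.83 ± 3.10 CPM, Oas1b and Oas1g did not pass the test (adjusted p from 0.107 to 0.217). These calls were not stable. Oas3 was lower with libraries scaled by total counts (-0.59, adjusted p = 0.029) and without cDC1_WT replicate 8 (-0.57, adjusted p = 0.0176), and Oas1b was lower without cDC1_WT replicate 2 (adjusted p = 0.0498). Oas1g was higher without pDC_WT replicate 4 (adjusted p = 0.0276), and Oas2 was lower with WT replicates 1 to 4 (-4.02, adjusted p = 0.016).

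Between the conventional populations, 7 OAS genes were lower in cDC1_WT than in cDC2_WT and none was higher, with 23.4% and 22.8% of all genes called in these directions. The count was 6 when a 1.5-fold change was required (Oas1b, adjusted p = 0.0555) and with WT replicates 1 to 4 alone (Oas1b, 0.211). All 7 had every cDC1_WT library below every cDC2_WT library (10.8% of all genes). Oas1a differed 16.9-fold (log2FC -4.08, SE 0.29, adjusted p = 1.14e-12), Oas3 8.83-fold (-3.14, SE 0.24, adjusted p = 3.93e-12) and Oasl2 23.9-fold (-4.58, SE 0.28, adjusted p = 3.04e-14). Oasl1 was the exception again, at 13.3 ± 4.34 CPM in cDC1_WT and 12.4 ± 4.19 CPM in cDC2_WT (log2FC 0.11, SE 0.22, adjusted p = 0.731).

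The pDC_TG group can also be set beside the conventional DCs. These comparisons share the pDC_TG libraries with the one above. Against cDC1_WT all 8 OAS genes were higher, each without overlap, where 27.1% of all genes were called higher, 26.6% were called lower and 18.3% had every library above. Oasl2, with a log2FC of 6.10 (SE 0.31, adjusted p = 2.96e-16), Oas1a, with 3.71 (SE 0.31, adjusted p = 2.59e-11), and Oas3, with 3.06 (SE 0.27, adjusted p = 3.65e-11), had the 3 smallest adjusted p among the 8.

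Against cDC2_WT, 2 OAS genes were higher and none lower (24.3% and 23.9% of all genes), and 6 did not pass the test. The 2 that were higher were the OAS-like genes, Oasl1 (log2FC 1.48, SE 0.26, adjusted p = 2.25e-05) and Oasl2 (log2FC 1.53, SE 0.27, adjusted p = 3.28e-05). All pDC_TG libraries were above all cDC2_WT libraries for Oasl1, Oasl2 and Oas1b (16.2% of all genes), although Oas1b did not pass the test (log2FC 1.71, SE 0.87, adjusted p = 0.106) except in a fit of these 2 groups alone (0.00341). For Oas3 the log2FC was -0.08 (SE 0.27, adjusted p = 0.839), for Oas1a -0.37 (SE 0.32, adjusted p = 0.357) and for Oas2 -0.19 (SE 0.97, adjusted p = 0.897). For Oas1g it was -1.34 (SE 0.79, adjusted p = 0.170) and for Oas1c 0.56 (SE 0.95, adjusted p = 0.667). The standard errors of the scarce genes leave room for differences of several fold. With libraries scaled by total counts alone, the log2FC of Oas3 was 0.12.

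**Figure D3:**
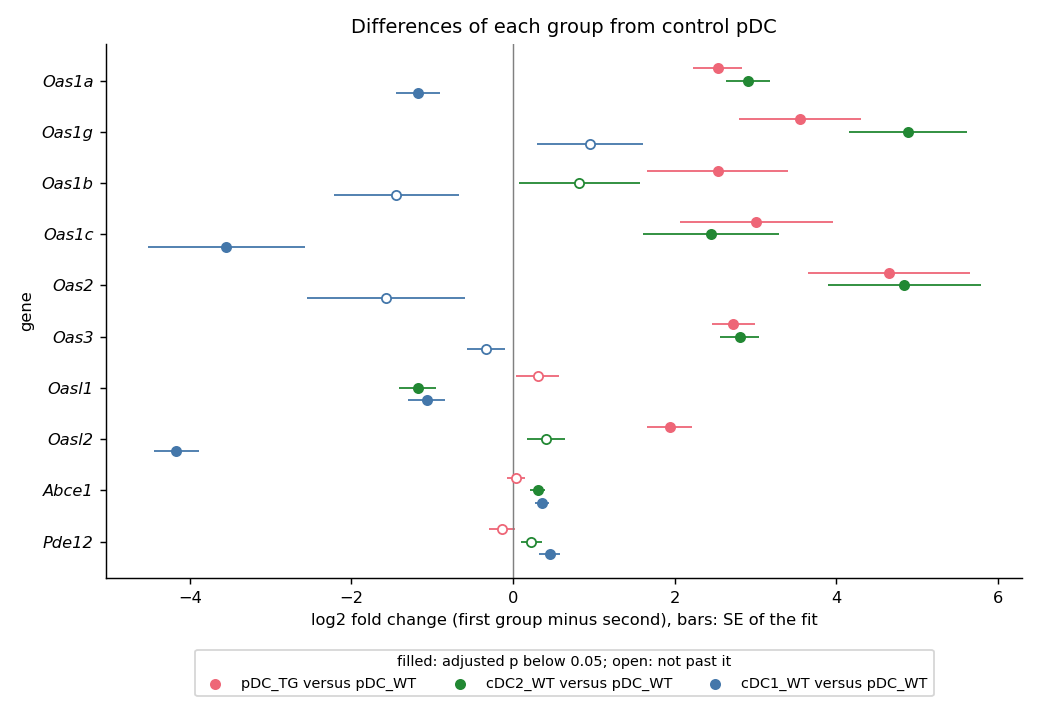
Log2 fold change against pDC_WT (x axis, bars are SE of the fit) of each OAS gene, Abce1 and Pde12 (y axis) in pDC_TG, cDC2_WT and cDC1_WT, where filled points passed an adjusted p of 0.05 and open ones did not. Oas1a, Oas1g, Oas1c, Oas2 and Oas3 lie on the right for both pDC_TG and cDC2_WT, whereas Oasl1 has no filled point to the right of 0.

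By order of mean level, cDC2_WT came first and pDC_TG next for Oas1a, Oas1g, Oas2 and Oas3, and pDC_TG came first for Oas1b, Oas1c, Oasl1 and Oasl2. The step between the first and the second group passed the test for Oasl2 alone among the 8. For Oas1b no step between neighbouring groups passed it. cDC1_WT was last for Oas1a, Oas1b, Oas1c, Oas2, Oas3 and Oasl2, pDC_WT was last for Oas1g and cDC2_WT for Oasl1. The last step did not pass for Oas1b, Oas1g, Oas2, Oas3 and Oasl1.

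To compare genes with each other, levels were divided by the length of the union of exons. The 8 genes summed to 9.78 ± 2.20 CPM per kb in cDC1_WT, 81.2 ± 19.3 in cDC2_WT, 27.2 ± 7.41 in pDC_WT and 97.1 ± 13.4 in pDC_TG. Oasl1 was the leading transcript in cDC1_WT, with 52.2% of the sum, and in pDC_WT, with 39.5%. In pDC_WT Oasl2 followed with 29.0% and Oas1a with 24.7%. Oas1a led in cDC2_WT with 63.0% and in pDC_TG with 40.9%, where Oasl2 held 30.8% and Oasl1 13.5%. With the longest transcript as the length instead, Oasl2 in pDC_TG was at 60.9 CPM per kb against 39.7 for Oas1a, and in pDC_WT Oasl2 held 42.1% and Oasl1 33.8% of the sum. The leading transcript of both pDC groups thus depends on the transcript model, whereas Oasl1 led in cDC1_WT (52.0%) and Oas1a in cDC2_WT (52.5%) with this length too. Neither length allows for the words that Oas1a shares with Oas1g, 47.6% of those of Oas1a. How such reads were counted is not known, so the share of Oas1a could be understated in each group.

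**Figure D4:**
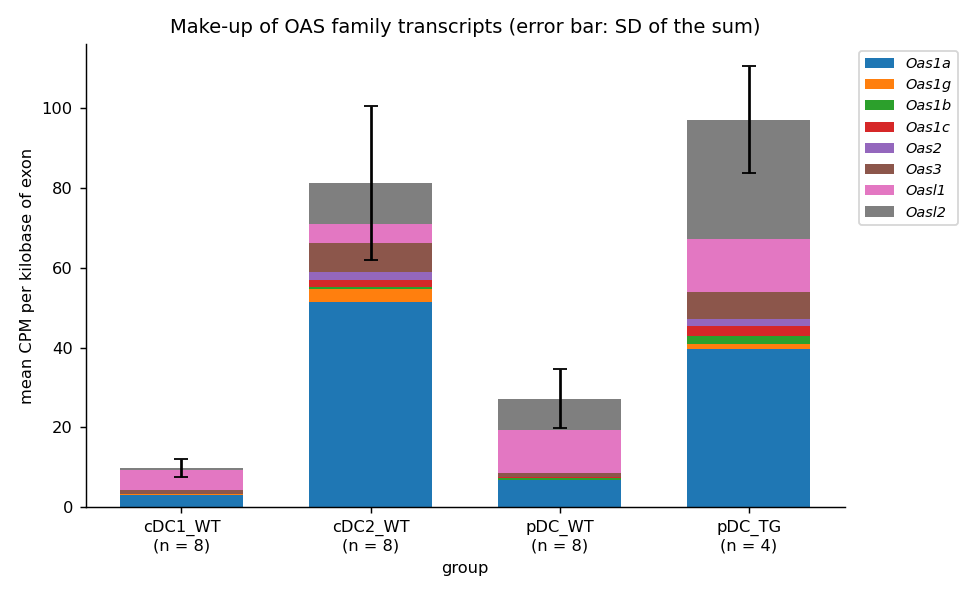
Mean CPM per kilobase of exon (y axis) of the 8 OAS genes stacked for each group (x axis), with an error bar for the SD of the sum over libraries. The sum is 27.2 in pDC_WT and 97.1 in pDC_TG, and the Oasl1 segment is of similar height in both while those of Oas1a and Oasl2 are larger in pDC_TG.

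Since 6 of the 8 OAS genes did not differ past the threshold between pDC_TG and cDC2_WT, markers of cDC2 were read in the same libraries. Of 8 cDC2 markers, 3 were higher and 2 lower in pDC_TG than in pDC_WT, and their summed level was 1755 to 1945 CPM in pDC_TG, 1496 to 2098 CPM in pDC_WT and 2534 to 2876 CPM in cDC2_WT. Clec4a4, which encodes the cDC2 lectin DCIR2, was at 218 CPM in cDC2_WT and at most 0.0757 CPM in pDC_TG, with no count in 2 of its 4 libraries. Itgam, the gene of the integrin CD11b, was at 31.9 CPM in pDC_TG, 0.401 in pDC_WT and 155 in cDC2_WT. Ltb, with a mean of 577.7 CPM in pDC_TG, stood near cDC2_WT (587.6 CPM) and above pDC_WT (144.7 CPM). Irf4, with a mean of 434.2 CPM in pDC_TG, was above both cDC2_WT (220.6 CPM) and pDC_WT (145.7 CPM). The pDC_TG means of Cd4 and Clec10a lay between those of cDC2_WT and pDC_WT, and those of Sirpa and Mgl2 lay below both. For the library with neutrophil transcripts, pDC_TG replicate 4, Oas3 was the lowest of the 4, at 40.1 CPM, and Oas2 the highest, at 12.9 CPM. Without it the log2FC of Oas1a, Oas1g, Oas2, Oas3 and Oasl2 stayed past the threshold.

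Sensors and interferon genes were read from lists of the pathway in the comparison of pDC_TG with pDC_WT, in which 7.72% of all genes were higher and 7.04% lower, with a median log2FC of 0.00. Of 11 genes of double-stranded RNA and cytosolic DNA sensing, 5 were higher and none lower, with a median log2FC of 0.12. The list includes genes that share the ligand of the OAS proteins. Ddx58, the gene of the RNA helicase RIG-I, had 41.9 to 67.8 CPM in pDC_TG and 1.08 to 5.67 CPM in pDC_WT (log2FC 4.04, SE 0.54, adjusted p = 2.61e-06). Dhx58, the gene of the RIG-I-like protein LGP2, was 2.27-fold higher, at 68.0 CPM in pDC_TG (adjusted p = 8.33e-07). Ifih1, the gene of the sensor MDA5, was 2.08-fold higher, at 34.8 CPM (adjusted p = 0.000349). Zbp1, the gene of a sensor of left-handed nucleic acid, rose from 13.0 to 42.0 CPM (1.70, adjusted p = 3.01e-08). Eif2ak2, which encodes the RNA-dependent kinase PKR, was at 6.97 against 6.83 CPM (0.03, adjusted p = 0.986), and Mavs, the adaptor gene of RIG-I and MDA5, at 37.9 against 38.1 CPM (-0.01, adjusted p = 1.0).

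Of 20 interferon-stimulated genes outside the OAS family, 12 were higher and 3 lower (7.72% and 7.04% of all genes), with a median log2FC of 0.77. Rtp4, which encodes a transmembrane protein induced by interferon, had 121 to 182 CPM in pDC_TG and 0.392 to 3.14 CPM in pDC_WT (log2FC 6.59, SE 0.49, adjusted p = 4e-11). Ifit3, which encodes a binding partner of the RNA cap sensor IFIT1, was 18.9-fold higher, at 38.4 CPM (log2FC 4.24, adjusted p = 1.23e-06). The exonuclease gene Isg20 rose from 6.66 to 26.9 CPM (2.01, adjusted p = 2.54e-07). Xaf1 rose from 16.2 to 50.3 CPM (1.63, adjusted p = 5.72e-07). The 3 that fell were Samd9l, Trim30a and Bst2, the last a pDC marker as well, at 743 against 1156 CPM (-0.64, adjusted p = 0.000379). Mx1, a GTPase gene, was at 5.38 against 5.03 CPM (0.10, adjusted p = 0.944).

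Of 8 genes of the type I interferon receptor and its signalling, 1 was higher and 2 were lower. Usp18, which encodes a protease that restrains the receptor, rose from 155 to 231 CPM (log2FC 0.58, adjusted p = 0.00266). The receptor chain gene Ifnar2 fell from 451 to 370 CPM (-0.28, adjusted p = 0.0177) and the receptor kinase gene Tyk2 from 122 to 69.9 CPM (-0.81, adjusted p = 2.8e-05). Stat2 and Irf9, which encode subunits of ISGF3, did not pass the test. Stat2 was at 119 against 132 CPM (-0.15, adjusted p = 0.834) and Irf9 at 268 against 247 CPM (0.12, adjusted p = 0.577).

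Of 9 interferon regulatory factor genes, which bind elements of the GAAA type printed above, 2 were higher and 3 lower. Irf8, the floxed gene, Irf5 (318 to 143 CPM, -1.15, adjusted p = 1.72e-09) and Irf1 (360 to 202 CPM, -0.83, adjusted p = 0.000221) fell. Irf2 rose from 57.3 to 107 CPM (0.90, adjusted p = 2.32e-06), as did Irf4. Irf7, the target of OASL1, was at 676 against 630 CPM (0.10, adjusted p = 0.695). None of 20 genes of type I and III interferons passed the filter on low counts, and 14 of them had no count in any library. The 20 together had 112 counts in pDC_WT and 32 in pDC_TG, a summed mean of 0.591 and 0.291 CPM, so their levels were at the limit of this depth and were not compared.

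**Figure D5:**
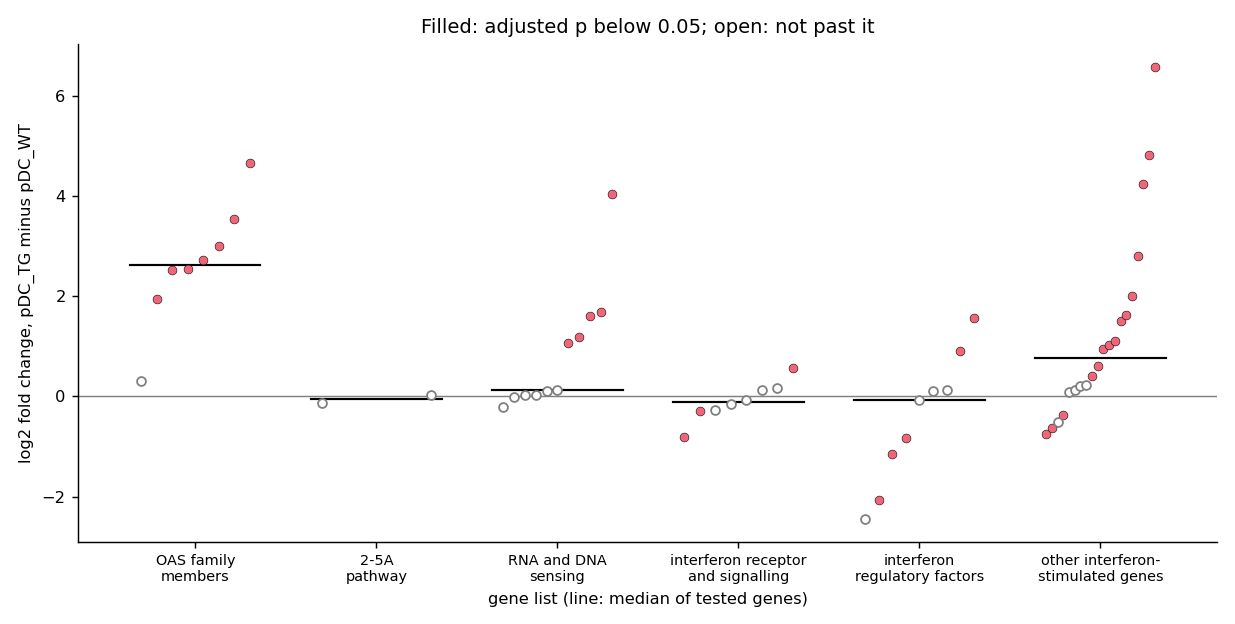
Log2 fold change of pDC_TG over pDC_WT (y axis) for each tested gene of 6 lists (x axis), where filled points passed an adjusted p of 0.05, open points did not, and the line is the median of the list. The OAS genes have a median of 2.63 with 7 filled points above 0, and the other interferon-stimulated genes have a median of 0.77 with filled points on both sides of 0.

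The genes whose pattern over the 28 libraries was most like that of the OAS genes were found by Pearson correlation with the mean of their standardised log2 levels. These were Rtp4 (r = 0.947), Stard5 (0.944), Bcl3 (0.943), Pydc3 (0.941) and Ms4a4b (0.941). The libraries share 4 populations, so the values mostly describe differences between groups. Within groups, with group means removed, r was 0.414 for Rtp4 and -0.05 for Stard5. Of the 5, 1 remained when Spearman's rho was used. Singly, Rtp4 was the closest to Oas1a (r = 0.961), Oas1c (0.918) and Oas3 (0.966), Ifit3b to Oas2 (0.943), Gm16894 to Oas1g (0.953), Slc9a2 to Oas1b (0.867) and Eef2k to Oasl2 (0.976). Oasl1 stood apart here too, being closest to Ddx51 (0.886), a helicase gene whose mean was 57.5 CPM in pDC_WT and 54.6 in pDC_TG, and 21.4 and 17.2 in cDC1_WT and cDC2_WT. Among the OAS genes themselves, the correlation within groups over the 28 gene pairs ranged from -0.07 to 0.71 with a median of 0.21.

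Sex could be read from Xist and Y-linked genes in these mice, and all odd replicates were female and all even ones male, 14 libraries each. Oas1a was higher in each of the 4 female pDC_WT libraries (13.4 to 20.5 CPM) than in each of the 4 male ones (5.79 to 11.05 CPM). The same held in pDC_TG, with 2 libraries of each sex, for Oas1a, Oasl1 and Oasl2. In every other pair of gene and group the females were not all above the males, Oas1a in cDC1_WT and cDC2_WT included. The share of all genes that separate in this way was not counted. In a fit with a sex term, edgeR's adjusted p for female minus male was 0.545 for Oas1a (log2FC 0.61) and 0.998 for Oasl2 (0.39), and no OAS gene passed, where 0.0228% of all genes were called higher in females and 0.038% lower.

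The neighbours of the OAS genes were read in the same comparison. Of 43 other annotated genes within 200 kb, 19 were tested, of which 3 were higher and 1 lower in pDC_TG than in pDC_WT (7.72% and 7.04% of all genes). These included Tpcn1 (0.434 to 4.69 CPM, log2FC 3.43, adjusted p = 4.08e-05), an endolysosomal ion channel gene, Unc119b (76.0 to 114 CPM, 0.58, adjusted p = 0.0055), and Slc8b1 (70.1 to 27.0 CPM, -1.38, adjusted p = 8.78e-07), a mitochondrial exchanger gene.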

How the data were processed

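Total RNA (4 ng per sample) was amplified with a template-switching kit that does not mark strand, libraries had 15 PCR cycles, and single reads of 75 bases came from 2 flow cells, per the labels' protocols. PCR copies cannot be told from molecules, so intervals and floors would cover counting error only. The authors deposited raw read counts per gene. The build mm10, the aligner TopHat2 2.1.0, the trimmer Trimmomatic 0.35, SAMtools 0.1.18 and FastQC 0.11.4 are named per the submitters' processing notes. Which tool and gene annotation made the counts is not given in the sources used here. Lines that name no gene were left out of library sizes (reads outside genes 8.23% to 18.7%, ambiguous reads 1.04% to 1.57%).

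Counts were tested with edgeR 4.0.16 (R 4.3.3) by the quasi-likelihood test with robust dispersion, TMM scaling, filterByExpr (minimum count 10) and Benjamini-Hochberg adjustment over 13159 genes, at 0.05, in 1 fit of all 28 libraries by group. The standard error is the log2FC divided by the root of the F statistic. Replicates of every group differed by more than sampling noise (chi-square per degree of freedom of at least 33.6). On simulated counts for pDC_TG against pDC_WT (12740 genes, 50 changed at each fold), 20 genes changed 1.5-fold, 33 changed 2-fold, 42 changed 4-fold and 45 changed to 0.25-fold were called, with 4 calls among unchanged genes. The changed genes were drawn only from those above a minimum level in pDC_WT. Oas1b, Oas1c, Oas1g and Oas2, with pDC_WT means of 0.242 to 0.721 CPM, lie below it, so these rates do not cover them.

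The OAS genes and the lists were chosen with earlier results of these data known, so no list supports another. Some genes of these lists are not reported here and were left out of the list counts. Named genes were all 8 OAS genes, every gene of the 2-5A pathway and up to 4 genes per other list by adjusted p for pDC_TG against pDC_WT. Eif2ak2, Mavs, Mx1, Stat2, Irf9, Irf7, Itgam and Clec4a4 were named in addition for their known role. The other cDC2 markers, Irf4 among them, were named to complete that list. Samd9l and Trim30a, given without values, complete counts of 5 or fewer. Similar genes were the 5 with the highest r, and 1 per OAS gene. Neighbours were the 3 of smallest adjusted p. Gene positions and exon lengths come from GENCODE M21, in which 23376 of 24421 symbols matched, and promoters from RefSeq. Alternatives were other scalings (size factors and total counts), filters, DESeq2 1.42.0, a 1.5-fold threshold, fits of 2 groups, of WT replicates 1 to 4 or 5 to 8, with a sex term or replicate block, and leaving out each library. The labels do not say which library ran on which flow cell, so flow cell was not a term.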

Additional observations from a re-analysis of the deposited data

Results flagged for a closer look

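Of 40 sets of values (10 genes in 4 groups), 6 had a highest or lowest library far from the rest by Dixon's criterion. Its nominal rate by chance is about 1 in 20. That rate does not cover sets with few counts, such as Oas1c in cDC1_WT, with 7 of 8 libraries at 0. There a single library with counts is always flagged, so 6 of 40 cannot be read against the rate. Oas1c in cDC1_WT was at 0.441 CPM in replicate 1 and at 0 in the others. In pDC_WT Oas1c was at 2.52 CPM in replicate 1, with the next library at 1.02 CPM. Oasl2 in cDC1_WT was at 6.73 CPM in replicate 1, with the next at 3.38 CPM. Replicate 1 was thus the high library in 3 of the 6 sets. Oas3 in pDC_TG was lowest in replicate 4, at 40.1 CPM, with the next at 50.8 CPM, and that library also held the neutrophil transcripts, whose part in the value was not tested. Abce1 in cDC1_WT was lowest in replicate 4, at 149 CPM, with the next at 210 CPM. Pde12 in pDC_WT was lowest in replicate 7, at 23.9 CPM, with the next at 40.8 CPM.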

How the results depend on the processing

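In the comparison of pDC_TG with pDC_WT, Oas1a, Oas1g, Oas2, Oas3 and Oasl2 kept their direction and their call under all 23 alternatives, with log2FC of 2.42 to 2.66 for Oas1a, 2.65 to 2.85 for Oas3 and 1.75 to 2.15 for Oasl2, and Oasl1 stayed short of the threshold (0.13 to 0.45). The number of OAS genes higher was 5 to 7. Oas1b did not pass when only WT replicates 1 to 4 were fitted (adjusted p = 0.234), nor against a 1.5-fold change (0.168), without the low-count filter (0.0578), with a sex term (0.0503) and without single pDC_WT libraries other than replicates 2 and 4. Oas1c did not pass when only those WT replicates were fitted (0.170) and against a 1.5-fold change (0.0999). Same-numbered WT libraries deviated together, with a median r of 0.105 to 0.126 (lowest 0.049 to 0.057). They matched best with their own number in 7 or 8 of 8. Those of pDC_TG and pDC_WT did not (0 of 4). The labels do not say what the numbers mark. The main fit did not take them as pairs, so its p-values between WT groups leave out what same-numbered libraries share. With a replicate block, Oas1b lost its call (adjusted p = 0.0991), 6 OAS genes were higher, and Oas1g passed for cDC1_WT against pDC_WT (1.66, adjusted p = 0.0382). That comparison then had 1 OAS gene higher instead of 0, as it did with WT replicates 5 to 8 alone and in a range of 0 to 1 over single libraries left out (1 without pDC_WT replicate 4). With WT replicates 1 to 4, Oas2 was called lower there (-4.02, adjusted p = 0.016). With WT replicates 5 to 8, Oas2 had no count in pDC_WT and its log2FC was 5.08 instead of -1.57, a value that is no bound. For pDC_TG against cDC2_WT, 1 OAS gene was lower instead of 0 with WT replicates 1 to 4 alone (Oas1a, -0.61, adjusted p = 0.0369) and with only these groups fitted (Oas1g, -1.34, 0.0169). Values near 0 changed sign there: Oas3 (-0.08) to 0.019 with WT replicates 5 to 8 and 0.12 with total counts, and over single libraries left out Oas3 ranged from -0.146 to 0.002 and Oas2 from -0.579 to 0.014. Oasl1 in cDC1_WT against cDC2_WT ranged from -0.006 to 0.20 over single libraries left out. The cause was not tested in these cases. Against a 1.5-fold change, 337 genes were higher and 194 lower in pDC_TG than in pDC_WT, instead of 1016 and 927, and 1193 to 2412 per direction passed in the other comparisons. cDC1_WT against cDC2_WT had 1872 higher and 2049 lower with WT replicates 1 to 4, instead of 3003 and 3082. Scaling by total counts shifted log2FC by 0.05 for pDC_TG against pDC_WT and by -0.25 for cDC1_WT against pDC_WT, where 36.6% of calls were then higher instead of 50.3%. The share of higher calls was 40.6% for cDC2_WT against pDC_WT, and it was 66.5% and 63.2% for pDC_TG against cDC1_WT and cDC2_WT (50.4%, 50.5% and 50.5% with TMM). Depth limits Oas1b, Oas1c, Oas1g and Oas2, which had 0 to 59 counts per pDC_WT library.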

Other observations

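The deviation of OAS levels was compared between WT libraries of the same number. The mean deviation of the 8 genes from their group mean correlated with r = 0.823 between cDC2_WT and pDC_WT, 0.582 between cDC1_WT and pDC_WT and 0.464 between cDC1_WT and cDC2_WT, over 8 numbers each. Libraries of the same number also share a sex.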
